A study of Homo sapiens with 6 samples.

Results

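The genes described here are the antioxidant and NRF2 response genes of RH30 cells. They form a list of 38 genes grouped by function and chosen with earlier results of these data known. Each gene was read from the array features whose platform annotation gave its symbol as the only one, and the brightest feature over all 6 arrays was kept. This left 33 of the 38 genes, among 22411 genes in all. SRXN1 and SOD2 had only features annotated with several genes, and PRDX5, FTH1 and AKR1B1 had no feature annotated with their symbol, so these 5 genes were not analysed here.

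RH30 cells are a long-established line of human alveolar rhabdomyosarcoma, a tumor with features of skeletal muscle. RH30-IκBα SR cells (3 arrays) were infected with retrovirus carrying the IκBα super repressor (SR), a form of IκBα that is not degraded on stimulation and so holds classical NF-κB in the cytoplasm. RH30 vector cells (3 arrays) were infected in the same way with the vector alone, and both lines grew in DMEM with fetal bovine serum. Both were stable lines, and whether either is a pool or a single clone is not given in the sources used here. Total RNA was measured on the Affymetrix Human Transcriptome Array, and these genes were compared between the RH30-IκBα SR and RH30 vector lines. All arrays of a group carry the label of the same line. Effects of holding back classical NF-κB therefore cannot be told apart from other differences between the lines.

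NRF2, encoded by NFE2L2, is a transcription factor that KEAP1 binds and marks for degradation until oxidants or electrophiles modify KEAP1. NRF2 then pairs with small MAF proteins at antioxidant response elements and raises genes for glutathione synthesis, thioredoxin reduction, quinone reduction and iron handling. The enzymes below remove superoxide and peroxides, keep protein thiols reduced and couple glutathione to reactive compounds. NF-κB is itself known to activate some antioxidant genes, and in many cells it protects against death from oxidants.

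All values are log2 levels as deposited, and a fold change is the difference of log2 means, RH30-IκBα SR minus RH30 vector. Array medians over all features lay between 4.344 and 4.398. Each gene was tested with limma over all 22411 genes with Benjamini-Hochberg adjustment, and a gene is called higher or lower at an adjusted p under 0.05. The labels do not say that the arrays of a group came from separate cultures, so a p-value here covers array-to-array spread only, and that spread may be technical. NFKBIA, the gene of the transgene, had levels of 13.55, 13.74 and 13.57 in RH30-IκBα SR cells and 11.61, 11.66 and 11.58 in RH30 vector cells. Of 17 muscle and rhabdomyosarcoma markers, 11 lay at or above the level of the median gene, 5.13, among them MYOD1, DES, MYOG and PAX3. PAX7, MYF6, TNNT3, CDH3, NOS1 and TFAP2B lay below it. Of the 17, 5 were higher in RH30-IκBα SR cells and 3 lower, and their part in the results below was not tested. Of 20 measured markers of leukocytes, endothelium, epithelium and neural cells, 1 lay above the median gene, the macrophage and lysosome gene CD68, with a log2 fold change of -0.99. The leukocyte integrin gene ITGAM (-0.24) and the endothelial gene PECAM1 (-0.26) were also called lower, with no array above 4.35. PTPRC, the leukocyte common antigen, was listed at 3.56 in every array of both lines. In bulk RNA, fewer cells of a type and less RNA per cell cannot be told apart.

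Promoter sequence is shown for the genes in which a search found the core of the antioxidant response element and whose values are central below. The windows run from 250 bases before to 50 bases after the RefSeq gene start of GRCh38.p14, and 26 of the 33 measured genes had one. The search used TGACNNNGC for the element and TGACTCA for the AP-1 site, which can lie inside the element, on both strands, and also the κB consensus. The element was found in 4 of 26 windows (15.4%), against 13.6% of all 27305 windows. The AP-1 site was found in 1 (3.85%, against 4.92%), and the κB consensus in 1, that of TXNRD2 (3.85%, against 5.72%). Matches are in capitals. GCLM and GSTP1 were higher in RH30-IκBα SR cells, TXNRD1 had a log2 fold change of 0.01, and MT2A, a metallothionein outside the 38 genes, was lower. GCLM lies on the minus strand at chr1:93909381-93909680, GSTP1 on the plus strand at chr11:67583562-67583861, TXNRD1 on the plus strand at chr12:104215529-104215828 and MT2A on the plus strand at chr16:56608334-56608633. In GSTP1 and MT2A the match also holds the AP-1 site.
GCLM: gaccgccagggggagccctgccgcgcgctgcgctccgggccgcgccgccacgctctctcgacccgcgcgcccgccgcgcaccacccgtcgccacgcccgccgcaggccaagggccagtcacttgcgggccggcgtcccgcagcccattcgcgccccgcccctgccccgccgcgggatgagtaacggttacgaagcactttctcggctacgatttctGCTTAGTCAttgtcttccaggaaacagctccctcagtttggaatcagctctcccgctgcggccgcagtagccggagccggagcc
GSTP1: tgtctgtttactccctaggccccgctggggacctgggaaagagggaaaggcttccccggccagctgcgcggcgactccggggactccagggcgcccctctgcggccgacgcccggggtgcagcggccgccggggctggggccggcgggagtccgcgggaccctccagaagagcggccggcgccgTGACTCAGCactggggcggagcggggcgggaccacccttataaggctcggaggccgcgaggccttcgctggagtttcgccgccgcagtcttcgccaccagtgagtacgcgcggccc
TXNRD1: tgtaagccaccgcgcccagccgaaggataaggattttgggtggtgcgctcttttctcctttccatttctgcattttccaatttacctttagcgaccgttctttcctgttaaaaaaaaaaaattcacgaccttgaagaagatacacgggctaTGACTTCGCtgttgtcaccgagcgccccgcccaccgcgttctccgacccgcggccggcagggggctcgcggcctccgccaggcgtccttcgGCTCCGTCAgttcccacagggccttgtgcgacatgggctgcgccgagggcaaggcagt
MT2A: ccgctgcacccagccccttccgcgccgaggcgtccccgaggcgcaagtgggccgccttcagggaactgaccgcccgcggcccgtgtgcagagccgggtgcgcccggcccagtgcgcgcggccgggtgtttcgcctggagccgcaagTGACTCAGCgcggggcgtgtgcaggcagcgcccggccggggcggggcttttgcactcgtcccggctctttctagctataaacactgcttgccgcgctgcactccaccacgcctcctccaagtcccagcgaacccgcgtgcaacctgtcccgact

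Of the 33 antioxidant and NRF2 response genes, 9 were higher in RH30-IκBα SR cells, 4 were lower and 20 did not pass the test. The higher genes were GLRX, MGST1, PRDX3, GSTP1, GPX8, GCLM, PRDX6, GSR and TXN, and the lower genes were GSTM3, GSS, CAT and NQO1. Over all genes 9.76% were called higher and 8.58% lower, 18.3% in all. The 13 called genes were 39.4% of the 33. All 13 lay among the 28 genes at or above the median level, of which they were 46.4%, against 34.2% called over all genes at that level. When 1.5-fold or more was also required, 5 of the 33 genes were called, against 6.42% of all genes. The groups did not overlap in 18 of the 33 genes (54.5%), against 29.6% of all genes. The median log2 fold change was 0.007 over the 33 genes and 0.000 over all genes. The genes that moved thus lay on both sides of a median near 0. Because the list was chosen with earlier results of these data known, these shares describe it and test nothing. The counts by role below are to be read against the same shares of all genes.

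**Figure D1:**
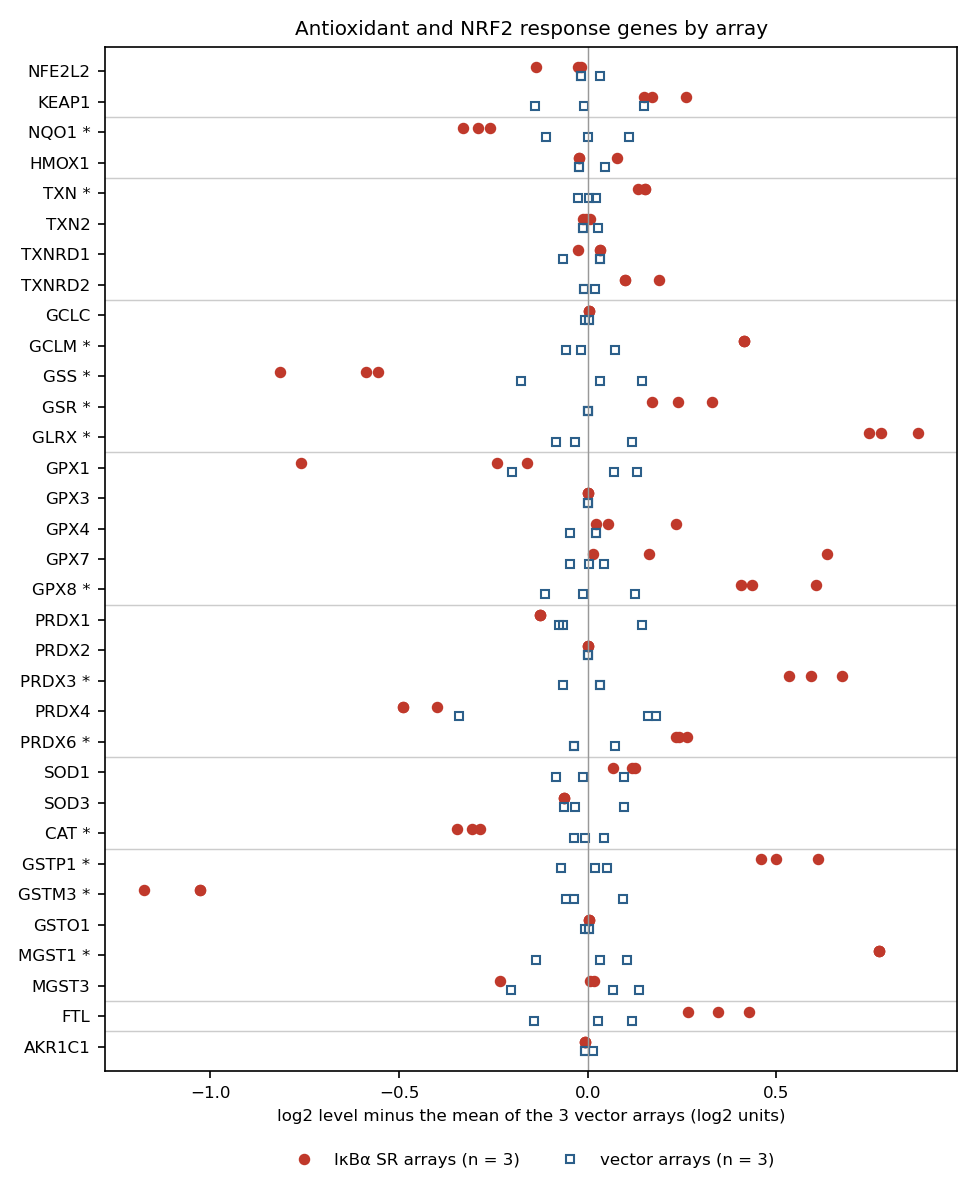
Level of each of the 33 measured genes on each array, as the log2 level minus the mean of the 3 RH30 vector arrays of that gene. Filled circles are RH30-IκBα SR arrays and open squares RH30 vector arrays, an asterisk marks the 13 genes with an adjusted p under 0.05, lines separate the roles, and GLRX and MGST1 lie farthest to the right and GSTM3 farthest to the left.

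NFE2L2, the gene of NRF2 itself, had levels of 9.65, 9.77 and 9.76 in RH30-IκBα SR cells and 9.77, 9.82 and 9.77 in RH30 vector cells. The groups overlapped, with a log2 fold change of -0.06 (95% interval -0.17 to 0.05, limma adjusted p = 0.49). KEAP1, which holds NRF2 in check, had levels of 8.97, 9.06 and 8.95 in RH30-IκBα SR cells and 8.66, 8.95 and 8.79 in RH30 vector cells. Its log2 fold change was 0.19 (95% interval -0.03 to 0.42, limma adjusted p = 0.27). Neither gene passed the test, and a transcript level says nothing of how much NRF2 protein was present.

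NQO1 and HMOX1, the enzymes most often used as readouts of NRF2, were not higher in RH30-IκBα SR cells. NQO1, which reduces quinones, had levels of 7.95, 8.02 and 7.99 in RH30-IκBα SR cells and 8.17, 8.28 and 8.39 in RH30 vector cells. Every RH30-IκBα SR array lay below every RH30 vector array, with a log2 fold change of -0.29 (SE, that is standard error, 0.0618, limma adjusted p = 0.037). The call was lost without any one RH30-IκBα SR array and without RH30 vector replicate 2 or 3 (limma adjusted p between 0.053 and 0.13). HMOX1, which opens heme and frees iron, carbon monoxide and biliverdin, had levels of 5.36, 5.46 and 5.36 in RH30-IκBα SR cells and 5.36, 5.43 and 5.36 in RH30 vector cells. These values overlapped near the level of the median gene, with a log2 fold change of 0.01 (95% interval -0.09 to 0.11, limma adjusted p = 0.98).

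In the thioredoxin system, 1 of 4 measured genes was higher and none was lower. TXN, the small cytosolic protein that reduces disulfides in peroxiredoxins and ribonucleotide reductase, had levels of 15.67, 15.69 and 15.69 in RH30-IκBα SR cells and 15.51, 15.56 and 15.54 in RH30 vector cells. The arrays lay apart with a narrow spread, and the log2 fold change was 0.15 (SE 0.0157, limma adjusted p = 0.0045), a ratio of 1.11. TXNRD1, the cytosolic reductase that recharges thioredoxin with NADPH and a known NRF2 target, had levels of 8.47, 8.41 and 8.47 in RH30-IκBα SR cells and 8.37, 8.47 and 8.47 in RH30 vector cells. Its log2 fold change was 0.01 (95% interval -0.08 to 0.11). Its promoter window, shown above, holds the element at positions -99 and -8 from the gene start. The mitochondrial pair differed from each other in overlap but neither passed the test. TXNRD2, the mitochondrial reductase, had levels of 7.00, 7.09 and 7.00 in RH30-IκBα SR cells and 6.89, 6.92 and 6.89 in RH30 vector cells (log2 fold change 0.13, limma adjusted p = 0.051). Without RH30-IκBα SR replicate 2 its adjusted p was 0.026 from limma. TXN2, mitochondrial thioredoxin, lay between 8.77 and 8.79 in RH30-IκBα SR cells and between 8.77 and 8.81 in RH30 vector cells.

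The genes of glutathione synthesis and reduction were called in 4 of 5, with 3 higher and 1 lower. Glutathione is built in a pair of ATP-dependent steps, in which glutamate-cysteine ligase, made of the catalytic subunit GCLC and the modifier subunit GCLM, joins glutamate to cysteine, and glutathione synthetase, GSS, adds glycine. GCLM was listed at 9.85 in every RH30-IκBα SR array, against 9.38, 9.42 and 9.51 in the RH30 vector arrays. The log2 fold change was 0.41 (SE 0.0356, limma adjusted p = 0.0024), a ratio of 1.33. The identical values of RH30-IκBα SR cells leave its error to the RH30 vector arrays and to the spread shared across genes. GCLC was at 5.64 in each RH30-IκBα SR array and at 5.63, 5.64 and 5.64 in RH30 vector cells, so it showed no change beside that of GCLM. With values this constant, an unchanged transcript cannot be told from a feature that does not respond.

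GSS ran the other way. Its levels were 8.30, 8.56 and 8.53 in RH30-IκBα SR cells and 8.94, 9.15 and 9.26 in RH30 vector cells. The groups did not overlap, and the log2 fold change was -0.65 (SE 0.117, limma adjusted p = 0.022). The call was lost without any one RH30-IκBα SR array and without RH30 vector replicate 2 or 3 (limma adjusted p between 0.059 and 0.085), while the log2 fold change stayed between -0.74 and -0.57.

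GSR, glutathione reductase, returns oxidized glutathione to the reduced form with NADPH. It had levels of 10.60, 10.76 and 10.67 in RH30-IκBα SR cells and was listed at 10.43 in every RH30 vector array. The log2 fold change was 0.24 (SE 0.0436, limma adjusted p = 0.022), and the call was lost without RH30-IκBα SR replicate 3 or any one RH30 vector array (limma adjusted p between 0.078 and 0.084). GLRX, the cytosolic glutaredoxin that removes glutathione from protein cysteines, had the largest increase of the 33 genes. Its levels were 6.33, 6.20 and 6.23 in RH30-IκBα SR cells and 5.37, 5.57 and 5.42 in RH30 vector cells. The gap between the groups was wider than the spread within either, with a log2 fold change of 0.80 (SE 0.067, limma adjusted p = 0.0022), a ratio of 1.74.

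Glutathione peroxidases are named for the use of glutathione to reduce hydrogen peroxide and lipid peroxides, which not all of them share, and 1 of 5 was called. GPX8, a peroxidase of the endoplasmic reticulum, had levels of 11.37, 11.40 and 11.57 in RH30-IκBα SR cells and 10.85, 10.95 and 11.09 in RH30 vector cells. The log2 fold change was 0.49 (SE 0.0863, limma adjusted p = 0.022). Its call was lost without any one RH30-IκBα SR array and without RH30 vector replicate 1 or 2 (limma adjusted p between 0.056 and 0.083). GPX1, the abundant cytosolic selenoenzyme, had levels of 7.26, 7.86 and 7.78 in RH30-IκBα SR cells and 7.82, 8.09 and 8.15 in RH30 vector cells. RH30-IκBα SR replicate 1 lay lowest and the groups overlapped, so the log2 fold change of -0.39 had a 95% interval of -0.91 to 0.14. GPX4, the enzyme that reduces lipid peroxides in membranes and holds off ferroptosis, had levels of 11.37, 11.40 and 11.58 in RH30-IκBα SR cells and 11.30, 11.37 and 11.37 in RH30 vector cells. Its log2 fold change of 0.10 did not pass the test (limma adjusted p = 0.44). GPX7, another enzyme of the endoplasmic reticulum, ranged from 4.65 to 5.27 in RH30-IκBα SR cells and from 4.59 to 4.68 in RH30 vector cells (log2 fold change 0.27, limma adjusted p = 0.46). GPX3, the secreted form, was listed at 3.45 in every array, below the array medians.

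Peroxiredoxins are thiol peroxidases, and 2 of 5 measured were higher. PRDX3, the mitochondrial enzyme that TXN2 recharges, had levels of 14.37, 14.31 and 14.45 in RH30-IκBα SR cells and 13.81, 13.81 and 13.71 in RH30 vector cells. The groups lay well apart, with a log2 fold change of 0.60 (SE 0.0482, limma adjusted p = 0.0019). PRDX6, which also has phospholipase activity and draws on glutathione, had levels of 12.36, 12.34 and 12.33 in RH30-IκBα SR cells and 12.06, 12.17 and 12.06 in RH30 vector cells (log2 fold change 0.25, SE 0.035, limma adjusted p = 0.010). PRDX4, the peroxidase of the endoplasmic reticulum, had levels of 9.11, 9.11 and 9.20 in RH30-IκBα SR cells and 9.76, 9.78 and 9.26 in RH30 vector cells. All RH30-IκBα SR arrays lay below all RH30 vector arrays, but RH30 vector replicate 3 stood close to them, and the log2 fold change of -0.46 had an limma adjusted p = 0.16. Without that array the log2 fold change was -0.63 and the adjusted p was 0.0035 from limma. PRDX1, the main cytosolic form, was listed at 15.95 in each RH30-IκBα SR array, against 16.00, 16.22 and 16.01 in RH30 vector cells, and did not pass the test (log2 fold change -0.13, limma adjusted p = 0.33). Without RH30 vector replicate 2 its log2 fold change was -0.06 and its adjusted p was 0.016 from limma. PRDX2 was listed at 3.90 in every array, below the array medians.

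Superoxide dismutases turn superoxide into hydrogen peroxide, which catalase splits into water and oxygen. CAT, catalase, had levels of 10.50, 10.54 and 10.56 in RH30-IκBα SR cells and 10.81, 10.89 and 10.84 in RH30 vector cells. Every RH30-IκBα SR array was lower, with a log2 fold change of -0.32 (SE 0.0264, limma adjusted p = 0.0022). SOD1, the cytosolic copper and zinc enzyme, had levels of 14.05, 14.11 and 14.10 in RH30-IκBα SR cells and 13.90, 14.08 and 13.97 in RH30 vector cells. The groups overlapped and the log2 fold change was 0.10 (95% interval -0.03 to 0.24). SOD3, the extracellular enzyme, lay at 3.35 in RH30-IκBα SR cells and between 3.35 and 3.51 in RH30 vector cells, below the array medians.

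Glutathione transferases couple glutathione to electrophiles, and here the class split, with 2 higher, 1 lower and 2 not called. GSTM3, a mu class enzyme, had the largest change of the 33 genes. It had levels of 6.53, 6.68 and 6.68 in RH30-IκBα SR cells and 7.67, 7.80 and 7.65 in RH30 vector cells. The log2 fold change was -1.08 (SE 0.0653, limma adjusted p = 0.00085), so the level was 2.11 times as high in RH30 vector cells. MGST1, a microsomal transferase that also reduces lipid peroxides, was at 6.61 in each RH30-IκBα SR array and at 5.70, 5.94 and 5.87 in RH30 vector cells (log2 fold change 0.77, SE 0.0683, limma adjusted p = 0.0026). A dimmer feature of MGST1 had means of 3.37 in RH30-IκBα SR cells and 3.51 in RH30 vector cells, and with the mean of both features the log2 fold change was 0.32. GSTP1, the pi class enzyme, had levels of 10.66, 10.51 and 10.55 in RH30-IκBα SR cells and 10.07, 10.10 and 9.98 in RH30 vector cells. The groups lay apart, with a log2 fold change of 0.52 (SE 0.0562, limma adjusted p = 0.0044), and its promoter window, shown above, holds the element at position -66. GSTO1, an omega class enzyme whose window holds the element at -226 and -161, lay at 5.31 in RH30-IκBα SR cells and between 5.30 and 5.31 in RH30 vector cells. MGST3 ranged from 7.39 to 7.64 in RH30-IκBα SR cells and from 7.42 to 7.76 in RH30 vector cells.

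FTL, the ferritin light chain, stores iron with the heavy chain and keeps it from driving radical formation. Its levels were 16.10, 16.18 and 16.26 in RH30-IκBα SR cells and 15.86, 15.95 and 15.69 in RH30 vector cells. The groups did not overlap, but the log2 fold change of 0.35 (95% interval 0.13 to 0.57) did not pass the test (limma adjusted p = 0.054). AKR1C1, an aldo-keto reductase that NRF2 induces strongly in many epithelial cells, lay at 3.39 in RH30-IκBα SR cells and between 3.39 and 3.41 in RH30 vector cells, below the array medians.

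Genes beside a member on its chromosome were set next to it. For each gene the 20 nearest protein-coding genes at or above the median level were taken, of which 20.5% of all 9565 placed were higher and 17.3% lower. For 6 of the 13 called genes, at least 10 of the 20 neighbors were called in the same direction. PRDX3, on chromosome 10, had 17 of 20 neighbors higher between HSPA12A and DMBT1, and their median log2 fold change of 0.57 was close to its own 0.60. NQO1, on chromosome 16, had 13 of 20 neighbors lower, with a median of -0.40 against its own -0.29. The values of GSR followed its chromosome 8 neighbors (12 of 20 higher, median 0.31 against its own 0.24). GSTM3, on chromosome 1, had 16 neighbors lower at a median of -0.59, and its own decrease was larger at -1.08. MGST1, on chromosome 12, had 12 neighbors higher at a median of 0.46, against its own 0.77. TXN, on chromosome 9, had 14 neighbors higher at a median of 0.47 and itself changed less, at 0.15. With only the 10 nearest genes the medians were 0.57 for PRDX3, -0.45 for NQO1 and 0.45 for GSR. They were -0.35 for GSTM3, 0.40 for MGST1 and 0.38 for TXN.

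The other 7 called genes, GCLM, GSS, GLRX, GPX8, PRDX6, CAT and GSTP1, had neighbor medians between -0.15 and 0.08, with 1 to 7 neighbors called in their direction. CAT was lower among chromosome 11 neighbors of which 6 were higher and 1 lower. GSTP1, on the same chromosome, had 1 neighbor higher and 3 lower between LRFN4 and C11orf24. GCLC showed the reverse arrangement: 14 of its 20 chromosome 6 neighbors were higher at a median of 0.31, while its own nearly constant feature gave a log2 fold change of 0.00. DNA copy number was not analysed here, and the part of a shared neighborhood in any of these values was not tested.

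**Figure D2:**
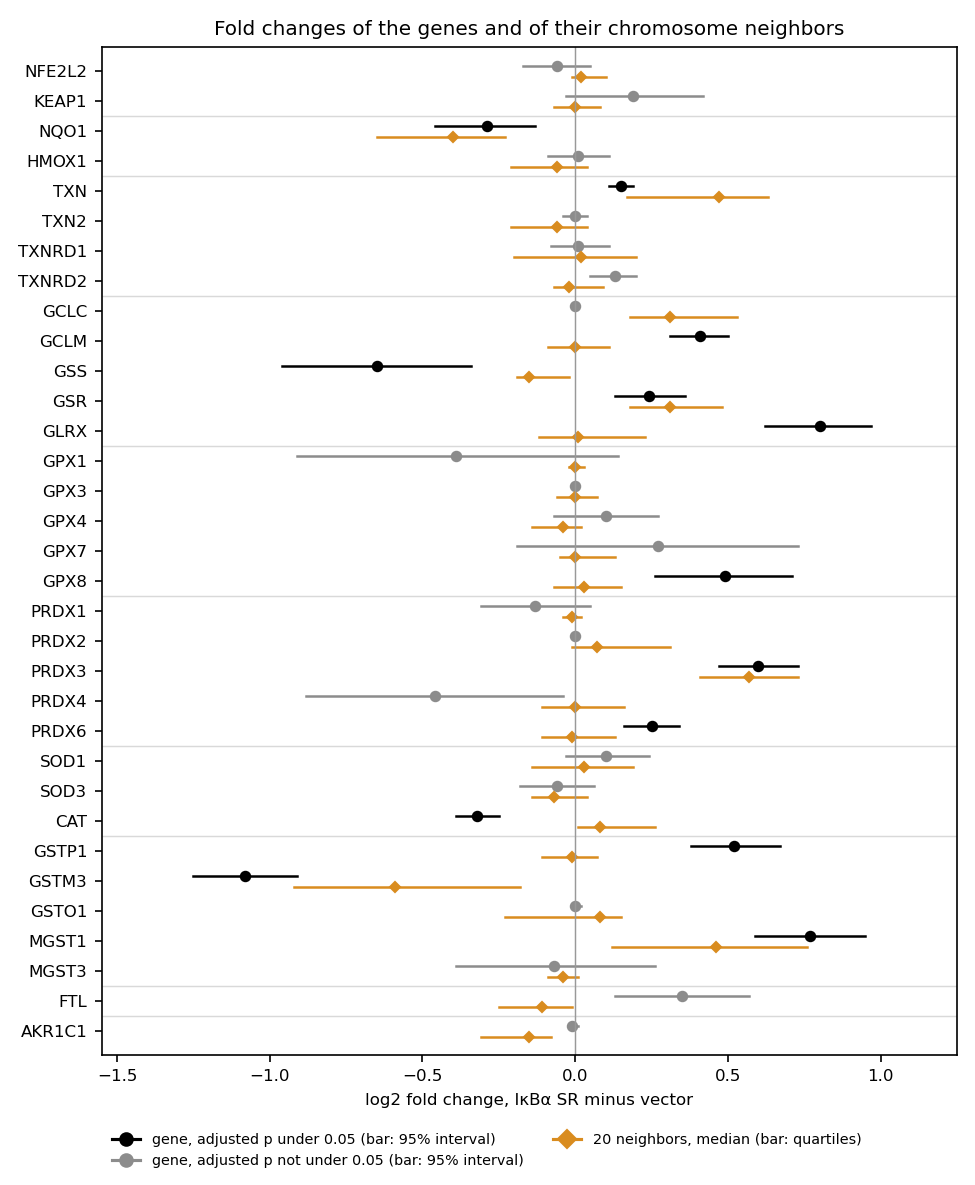
Log2 fold change, RH30-IκBα SR minus RH30 vector, of each measured gene (circle, with its 95% interval from limma) and of its 20 nearest bright protein-coding neighbors (diamond, median with quartiles). PRDX3, NQO1 and GSR lie within the quartiles of their neighbors, whereas GLRX, GCLM, GSTP1, GPX8, CAT and GSS lie outside them.

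Further genes of redox control were read from 7 lists. Their counts are to be read against 9.76% of all genes called higher and 8.58% lower, 18.3% in all. Of genes at or above the median level, 34.2% were called. These lists too were chosen with earlier results known, and none was tested as a set. Among genes that partner with or degrade NRF2, 2 of 13 measured were higher, 2 were lower and 9 did not pass the test. CUL3, the ubiquitin ligase scaffold that works with KEAP1 to degrade NRF2, was listed at 11.78 in every RH30-IκBα SR array, against 11.31, 11.36 and 11.31 in RH30 vector cells (log2 fold change 0.45, limma adjusted p = 0.00026). Of its 20 neighbors on chromosome 2, 10 were higher and none was lower, at a median of 0.21. Of its 10 nearest, 7 were higher and none was lower, at a median of 0.52. BACH2, which belongs to the family of repressors that occupy the same elements, had a log2 fold change of 0.64. NFE2L1, the NRF2 relative that raises proteasome genes, was at 10.29, 10.43 and 10.36 in RH30-IκBα SR cells and 10.79, 10.88 and 10.89 in RH30 vector cells (log2 fold change -0.49, limma adjusted p = 0.0033). DPP3, which can bind KEAP1 in place of NRF2, had a log2 fold change of -0.43.

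Other NRF2 target genes were higher in 6 of 28, lower in 2 and not called in 20, with a median of 0.000. SLC7A11, the cystine and glutamate exchanger that brings in the cysteine for glutathione, stood apart. Its levels were 10.79, 10.56 and 10.68 in RH30-IκBα SR cells and 8.20, 8.23 and 8.18 in RH30 vector cells. The log2 fold change was 2.47 (SE 0.0616, limma adjusted p = 8.9e-05), a ratio of 5.55, and it stayed between 2.42 and 2.53 under the 16 alternatives. Its 20 neighbors on chromosome 4 had a median of 0.14. SLC3A2, the heavy chain that SLC7A11 needs at the cell surface, was named after its values were seen. It had levels of 10.09, 10.09 and 10.03 in RH30-IκBα SR cells and 9.59, 9.84 and 9.68 in RH30 vector cells (log2 fold change 0.36, limma adjusted p = 0.029). The call was lost without any one RH30-IκBα SR array and without RH30 vector replicate 1 or 3 (limma adjusted p up to 0.11 over the alternatives).

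UGDH, which makes UDP-glucuronate for conjugation, BLVRA, a biliverdin reductase, and FECH, which inserts iron into heme, had log2 fold changes of 0.56, 0.41 and 0.30. All had neighbors that moved the same way, with medians of 0.70, 0.54 and 0.63. The call of FECH was lost without RH30 vector replicate 1 (limma adjusted p = 0.054) or 3 (0.052). BLVRB, the other biliverdin reductase, was at 8.98, 9.51 and 9.37 in RH30-IκBα SR cells and 10.55, 10.79 and 10.90 in RH30 vector cells. Its log2 fold change was -1.46 (SE 0.175, limma adjusted p = 0.0064), opposite to BLVRA. ABCC4, an exporter of conjugates, had a log2 fold change of -0.45, with 10 of 20 neighbors lower at a median of -0.27.

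**Figure D3:**
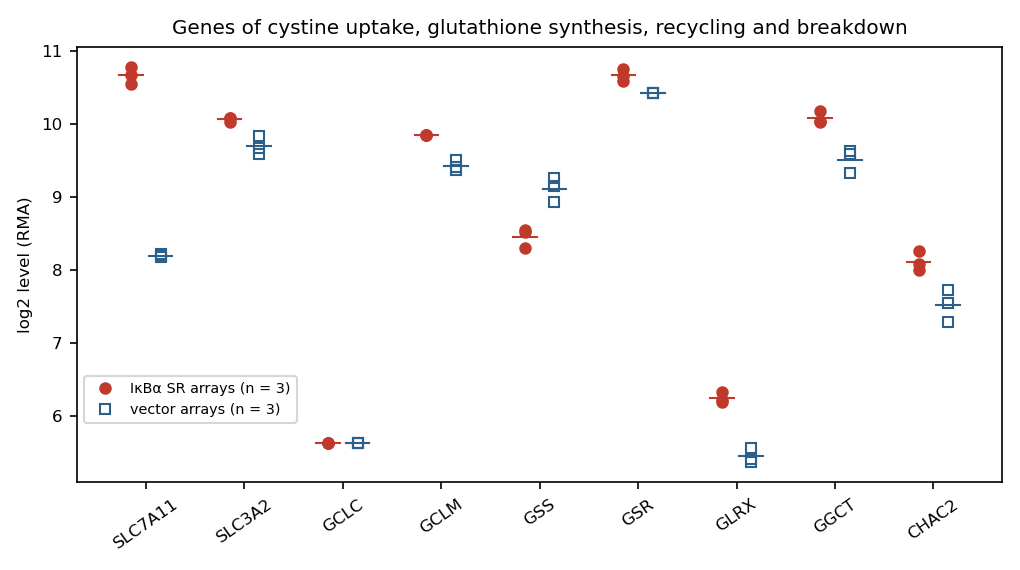
Log2 level on each array of genes of cystine uptake (SLC7A11, SLC3A2), glutathione synthesis (GCLC, GCLM, GSS), reduction (GSR, GLRX) and breakdown (GGCT, CHAC2), with RH30-IκBα SR arrays as filled circles to the left of RH30 vector arrays as open squares and a line at each mean. Levels are to be read within a gene and not between genes. SLC7A11 shows the widest gap, GCLC none, and GSS is the gene that is lower in RH30-IκBα SR cells.

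Other glutathione enzymes were higher in 3 of 20 and lower in 2, against 9.76% and 8.58% of all genes. GGCT and CHAC2, which break down glutathione and its gamma-glutamyl peptides, had log2 fold changes of 0.57 and 0.60. GSTK1, a mitochondrial and peroxisomal transferase, had one of 0.13. GGT7 and ESD had log2 fold changes of -0.29 and -0.46. Of 20 neighbors, GGCT had 16 higher at a median of 0.54, and ESD had 12 lower at a median of -0.33. Neighbor medians were -0.03 for CHAC2, -0.15 for GGT7 and -0.24 for GSTK1. None of the 5 calls of these enzymes held in every set of 5 arrays. Each was lost without RH30-IκBα SR replicate 2 and without replicate 3, and all but that of GGT7 also without replicate 1. Among RH30 vector arrays, GGCT lost its call without replicate 1, CHAC2 without replicate 2 or 3, GGT7 without replicate 2 and GSTK1 without any one. Over the alternatives, limma adjusted p-values reached 0.13 for GGCT, 0.15 for CHAC2, 0.20 for GSTK1, 0.092 for GGT7 and 0.072 for ESD.

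Of 21 other genes of thiol repair and copper delivery, 7 were lower and 2 higher. The 4 lower genes with the smallest p were PXDN, TXNIP, PARK7 and MSRB2. PXDN, a peroxidase that crosslinks collagen IV, was listed at 12.53 in every RH30-IκBα SR array and at 13.77, 13.79 and 13.71 in RH30 vector cells (log2 fold change -1.23), within a stretch of chromosome 2 where 18 of 20 neighbors were lower. TXNIP, which binds and inhibits thioredoxin, was at 10.39, 10.48 and 10.57 in RH30-IκBα SR cells and 11.30, 11.30 and 11.19 in RH30 vector cells (log2 fold change -0.78), opposite in direction to TXN. PARK7, a redox-sensitive chaperone also called DJ-1, and MSRB2, a mitochondrial methionine sulfoxide reductase, had log2 fold changes of -0.32 and -0.43. The higher genes were MSRB3 (0.67), another methionine sulfoxide reductase, and TXNL1 (0.48), a thioredoxin-like protein of the proteasome, 15 of whose 20 chromosome 18 neighbors were higher.

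Oxidant-producing enzymes were higher in 4 of 22 and lower in 1, against 9.76% and 8.58% of all genes. AOX1 and XDH, molybdenum oxidases that yield superoxide and hydrogen peroxide, had log2 fold changes of 0.78 and 0.38, and the collagen crosslinking oxidases LOX and LOXL1 had 0.24 and 0.46. LOXL2, of the same family, had a log2 fold change of -0.28. Of 20 neighbors each, LOXL1 and LOXL2 both had 9 higher and none lower, at a median of 0.23. The NADPH oxidase genes NOX1, NOX3, NOX4 and CYBB all had means below the array medians in both lines.

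In iron handling, 2 of 19 genes were higher and 2 lower, close to the 9.76% and 8.58% of all genes. TFRC, the transferrin receptor that takes up iron, was at 11.24, 11.09 and 11.19 in RH30-IκBα SR cells and 10.44, 10.52 and 10.45 in RH30 vector cells (log2 fold change 0.70, limma adjusted p = 0.0011), with 13 of 20 neighbors higher. STEAP3, which reduces iron in endosomes, had a log2 fold change of 0.40 among neighbors with a median of 0.00. NCOA4, which carries ferritin to lysosomes to release its iron, had a log2 fold change of -0.39. Of its 20 neighbors, 8 were lower and none was higher, at a median of -0.17. SLC40A1, the iron exporter ferroportin, had one of -0.27, a call lost without any one RH30-IκBα SR array and without RH30 vector replicate 3 (limma adjusted p between 0.057 and 0.063).

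Metallothioneins, small proteins that bind zinc and copper and scavenge radicals, were lower in 6 of 9 measured, higher in none and not called in 3, with a median log2 fold change of -0.865. MT2A was at 16.83, 17.32 and 16.95 in RH30-IκBα SR cells and 18.22, 18.30 and 18.34 in RH30 vector cells. Its log2 fold change was -1.25 (SE 0.142, limma adjusted p = 0.0053), but all 6 values lie above 16, the log2 ceiling of a 16-bit scanner, where the scale is not known and the size of the difference is uncertain. MT1X had levels of 6.85, 7.06 and 6.92 in RH30-IκBα SR cells and 7.81, 8.02 and 8.10 in RH30 vector cells, a log2 fold change of -1.03. MT1B, MT1H, MT1F and MT1G had log2 fold changes of -0.98, -0.86, -0.87 and -0.77. Their means in RH30-IκBα SR cells were 5.43, 4.63, 4.70 and 5.10, all but that of MT1B below the level of the median gene, 5.13. In RH30 vector cells the means were 6.41, 5.50, 5.56 and 5.88. MT1E (-0.43), MT1M (-0.30) and MT3 (-0.02) did not pass the test. The count of 6 was 4 without RH30-IκBα SR replicate 1 or 2 or RH30 vector replicate 1 or 2, where MT1F and MT1G lost their calls, and 3 without RH30-IκBα SR replicate 3, where MT1B had an limma adjusted p = 0.051, MT1F 0.068 and MT1G 0.074. These genes are near copies that stand side by side on chromosome 16, so their features may share signal and they are not independent of each other. Of the 20 genes around MT2A, 9 were lower and none was higher, at a median of -0.27. Other metallothioneins are among these 20 genes, so the count is not separate from that of the family.

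**Figure D4:**
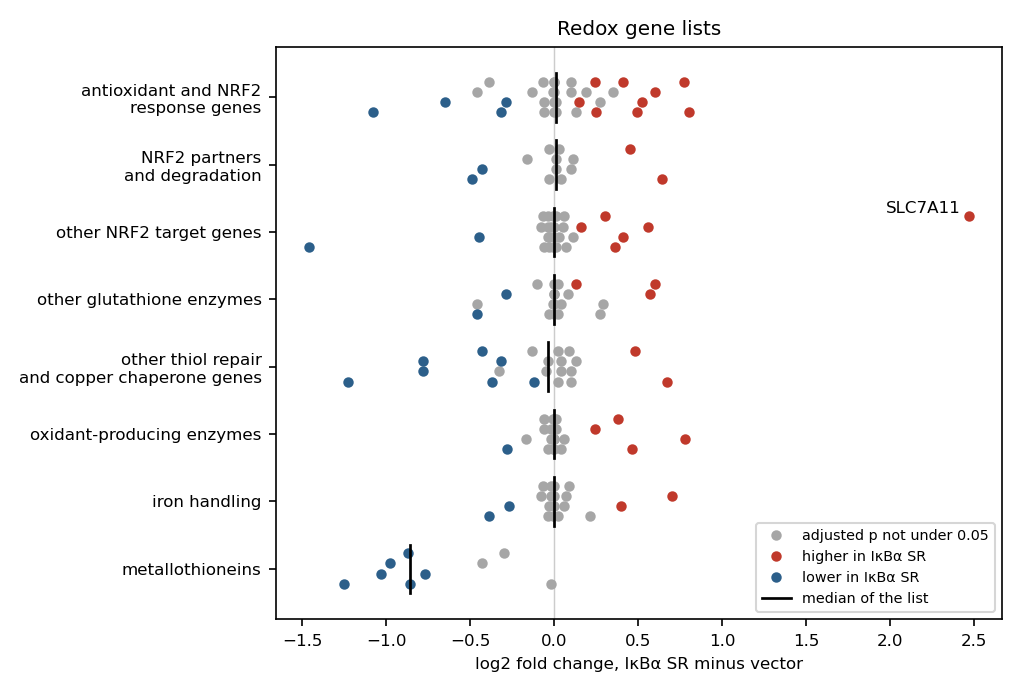
Log2 fold change, RH30-IκBα SR minus RH30 vector, of every measured gene of the 33 and of the 7 further lists, 1 point a gene, with a vertical line at the median of each list. Red points are higher and blue points lower at an adjusted p under 0.05 from limma, points are staggered for legibility, and the metallothionein median lies at -0.865 while that of the 33 genes lies at 0.007.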

How the data were processed

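RNA from RH30-IκBα SR cells (3 arrays) and RH30 vector cells (3 arrays) was hybridized to the Affymetrix Human Transcriptome Array. The values deposited by the authors are log2 signals from RMA, a method of background correction, quantile normalization and probe summary, computed per the labels in Affymetrix Expression Console. Software versions and the build behind the features were not given in the sources used here.

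Features with 1 gene symbol (23781 of 70523) were named through the platform annotation, symbols were updated through RefSeq (GRCh38.p14), and a gene was read from its brightest feature. Features with several symbols were not named. Genes were not filtered by level. Groups were taken from the sample titles. The test was limma (version 3.58.1, lmFit and eBayes, under R 4.3.3), with Benjamini-Hochberg adjustment over 22411 genes and a threshold of 0.05. In simulated data for this comparison over 22411 genes, 50 genes were changed at each size. Of these, 15 changes of 0.25 on the log2 scale were called, 31 of 0.5, 39 of 1 and 48 of 2, so small changes were missed most often. Of the 150 calls 11.3% were false, and false calls were not counted by size. Far fewer genes were changed there than the 4110 called in the data, so these shares may not carry over. In 9 of the 33 genes the 3 values of a group were identical to the last deposited digit. Of all 22411 genes, 6147 were identical within at least 1 group and 1563 on all 6 arrays. The cause was not tested. In GCLM, GSR, PRDX1, CUL3 and PXDN, identical values in a group leave the error to the other group and to the spread shared across genes. Their p-values are to be read with that limit. On each array 764 to 824 features exceeded 16, the ceiling of a 16-bit scanner on the log2 scale, PRDX1 and FTL on some arrays and MT2A on all among them. Values above that ceiling have no known scale. The number of arrays limits the precision.

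Every measured member is named, and from each further list up to 4 genes per direction past the threshold by smallest p. SLC3A2, MT1F, MT1G, MT1E, MT1M, MT3 and the NADPH oxidase genes were named outside that rule. The members and lists were chosen with earlier results of these data known. Neighbors were ordered by the RefSeq gene table, and promoter windows were taken from RefSeq. Alternatives changed the normalization, the filter, the feature, the variance model, array weights, the replicate block, the test, the fold required and the arrays used.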

Additional observations from a re-analysis of the deposited data

How the results depend on the processing

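Each of the 33 genes was refitted under up to 16 alternatives, 522 values in all. Of these, 481 stayed on the same side of the threshold, 31 lost a call, 10 gained one and no called gene changed direction. Some uncalled genes with log2 fold changes near 0, such as HMOX1, TXNRD1 and MGST3, changed sign. Of the 13 called genes, 8 (TXN, GCLM, GLRX, PRDX3, CAT, GSTP1, GSTM3 and MGST1) kept the call under every alternative other than the fold requirement, and NQO1, GSS, GSR, GPX8 and PRDX6 lost it under at least 1. Requiring 1.5-fold or more left 3 genes (GLRX, MGST1 and PRDX3) higher and 2 (GSTM3 and GSS) lower, since that threshold is stricter by construction. Over all genes it left 1438 (820 higher and 618 lower), and in the further lists 6 higher and 10 lower, against 19 and 22. FTL, TXNRD2, PRDX4 and PRDX1 gained a call under at least 1 alternative. Leaving out dim genes moved the median over the measured genes to 0.057.

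Leaving out each array in turn gave 7 to 9 genes higher and 2 to 4 lower, a median of 0.003 to 0.028, 14 to 17 higher and 15 to 21 lower genes in the further lists, and 2989 to 3791 genes over all (1629 to 2010 higher, 1360 to 1781 lower). NQO1 and GSS were the lower genes whose call was lost, without any one RH30-IκBα SR array or without RH30 vector replicate 2 or 3. Blocking on the replicate number left 2450 genes over all (1327 higher and 1123 lower), 7 higher and 3 lower among the measured genes, with the calls of NQO1, GSR and PRDX6 lost, and 12 higher and 15 lower in the further lists. Among the oxidant-producing enzymes the block ended the calls of LOX (limma adjusted p = 0.053), XDH (0.066) and LOXL2 (0.076), leaving 2 higher and 0 lower. It also ended those of FECH, GGCT, CHAC2, GSTK1, GGT7, ESD, SLC40A1, SLC3A2, MT1F and MT1G. Deviations of arrays that share a number correlated at 0.118, -0.217 and -0.195, so the numbers were not treated as pairs, and some arrays correlated better with another number than with their own. An unpaired t-test gave 15 of the 33 genes at an unadjusted p under 0.05 and 12 after Benjamini-Hochberg adjustment, with NQO1 lost. The study's methods name that test for comparisons in general and no test for the arrays. Within the further lists, apart from the fold requirement, the alternatives gave 0 to 5 higher and 0 to 3 lower other glutathione enzymes, 3 to 6 higher other NRF2 targets, 2 to 4 higher and 0 to 2 lower oxidant-producing enzymes, 1 to 3 lower iron genes and 3 to 7 lower metallothioneins. Unless stated, the cause of a change was not tested.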
